A study of Mus musculus with 12 samples.

Results

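Iron handling was followed in 10 of the 27179 genes of the deposited count tables, through the return of PU.1 in a mouse acute myeloid leukemia. The genes were listed by symbol, with no threshold on their values. They are Tfrc, Steap3, Steap4 and Slc11a2 for uptake, Slc11a1 for iron exit from phagosomes, Fth1 and Ftl1 for storage, Slc40a1 for export, and Ireb2 and Aco1 for control. The cells were AML246, a cytogenetically normal leukemia without p53 (p53-/-) that carries a hairpin against PU.1 (shPU.1) linked to GFP. Both features were shared by all groups, untreated cells included. AML246 cells were sorted by GFP from the bone marrow of leukemic C57BL/6 mice. The gate was GFPhigh in untreated mice, GFPhigh-mid at day 2 of doxycycline (Dox), GFPmid at day 4 and GFPlow at day 6. Dox turns off the hairpin and its GFP. The gate, the time and Dox itself cannot be told apart in this design, and all cells came from 1 leukemia. Each of the 4 groups had 3 bulk RNA-seq libraries, called technical replicates in the titles, although the design text names 3 mice a group. The spread behind each p-value is thus that between libraries and may be technical.

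Cells take up iron bound to transferrin through the transferrin receptor TFRC. In the endosome, STEAP3 reduces the released iron, and SLC11A2 (DMT1) carries it into the cytosol. SLC11A1 (NRAMP1) moves iron out of phagosomes in macrophages and other phagocytes. Ferritin, a shell of heavy (FTH1) and light (FTL1) chains, stores iron, and ferroportin (SLC40A1) is the iron exporter of mammalian cells. When iron is scarce, the control proteins IRP1 (Aco1) and IRP2 (Ireb2) bind hairpins in mRNA called iron-responsive elements. Such a hairpin in a 5' UTR blocks translation of the mRNA, whereas those in the 3' UTR of Tfrc protect the mRNA from decay. Read counts measure mRNA level, so they do not show control of translation.

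The hairpins were searched in mouse transcripts and are shown because their place differs between the members: at the 5' end in the storage and export genes and at the 3' end in Tfrc. The motif was a C, 5 stem bases, a 6-base loop that begins with CAGTG and does not end in G, and 5 bases that pair with the stem, G-T pairs allowed. Only the mRNA strand was searched. Each sequence is printed 5′ to 3′ in DNA letters, with the first 5 loop bases in capitals and coordinates on GRCm38 (mm10). The Slc40a1 and Ftl1 sites lie on the minus strand and the others on the plus strand.
Fth1 5' UTR, chr19:9982732-9982760: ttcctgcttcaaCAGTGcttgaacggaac
Ftl1 5' UTR, chr7:45459779-45459807: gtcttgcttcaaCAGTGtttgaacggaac
Slc40a1 5' UTR, chr1:45925465-45925493: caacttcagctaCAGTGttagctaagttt
Tfrc 3' UTR, chr16:32631219-32631247: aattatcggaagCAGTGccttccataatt
Tfrc 3' UTR, chr16:32631598-32631626: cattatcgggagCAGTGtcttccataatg
Tfrc 3' UTR, chr16:32631663-32631691: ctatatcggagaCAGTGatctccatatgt
Tfrc 3' UTR, chr16:32631710-32631738: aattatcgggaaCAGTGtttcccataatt

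A match was found in 4 of the 10 members and in 222 of 21877 protein-coding genes (1.01%). Matches in a 5' UTR were found in 23 genes (0.105%) and matches in a 3' UTR in 100 genes (0.457%). The site was in 4 of the 5 coding transcripts of Fth1, 1 of 2 for Ftl1, 1 of 4 for Slc40a1 and 1 of 3 for Tfrc. None of the 6 coding transcripts of Slc11a2 held these letters. The motif allows no unpaired base within the 5 stem pairs, so it misses hairpins with a bulge there. A gene without a match may thus still hold an iron-responsive element, and a gene with matches may hold more. The counts were made per gene, so transcripts with and without a site were not separated.

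The libraries held 4918920 to 7356166 counts, and levels are given as CPM (counts scaled to library size) after TMM scaling, which corrects for differences in composition between libraries. Spi1, which encodes PU.1, averaged 62.5 CPM in untreated cells and 458 at day 6. Day 6 replicate 2 stood apart from the other day 6 libraries: its counts varied 44.5 and 38.7 times more than counting error against replicates 1 and 3, compared with 2.62 to 10.5 times in every other pair within a group. The summed level of 10 neutrophil markers was 597 to 1661 CPM in untreated libraries and 137090, 62927 and 121357 at day 6 in replicates 1, 2 and 3. That of 8 monocyte markers was 5394 to 7002 CPM in untreated libraries and 10065 to 10773 CPM at day 4. At day 6 it was 3967, 7630 and 4108 CPM. Against untreated, 6 of the 8 were called higher and 1 lower at day 6 (adjusted p under 0.05), where 67.9% of all genes were called. From day 4 to day 6, 0 were called higher and 3 lower, where 46.3% of all genes were called. The monocyte sum thus does not stand for each marker. The summed level of 13 erythroid markers stayed between 2.40 and 9.33 CPM in all 12 libraries, with Rhag at 0 counts at days 2 and 4. In these bulk samples, fewer cells of a type and less RNA per cell cannot be told apart.

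Of the 10 members, 9 passed the filter on low counts. At day 2 no member passed an adjusted p of 0.05 in edgeR's quasi-likelihood test, against 1.45% of the 12057 genes tested (1.05% higher and 0.406% lower). An unadjusted p of 0.05 was passed by 1 member, and the share of all genes at that threshold was not counted. With DESeq2 no member passed an adjusted p of 0.05, against 3.52% of all genes. At day 4, 2 members were higher than in untreated cells (Slc11a1 and Ftl1) and none was lower, where 42.4% of all genes were called (22.1% higher and 20.2% lower). At day 6, 3 were higher (Slc11a1, Slc40a1 and Ireb2) and 3 lower (Slc11a2, Aco1 and Steap3), where 67.9% of all genes were called (35% higher and 32.9% lower). A change over the 4 groups in any form was called in the same number of members, 6, and in 68.7% of all genes. The share of the 9 at day 6 was thus near that of all genes. The median log2 fold change of the tested members was 0.07, 0.20 and 0.06 at days 2, 4 and 6, and that of all genes was -0.0038, -0.015 and -0.00029. Without day 6 replicate 2 the count at day 4 was 5 (all higher), where 50.2% of all genes were then called, and the count at day 6 was again 6, where 70.7% were.

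**Figure D1:**
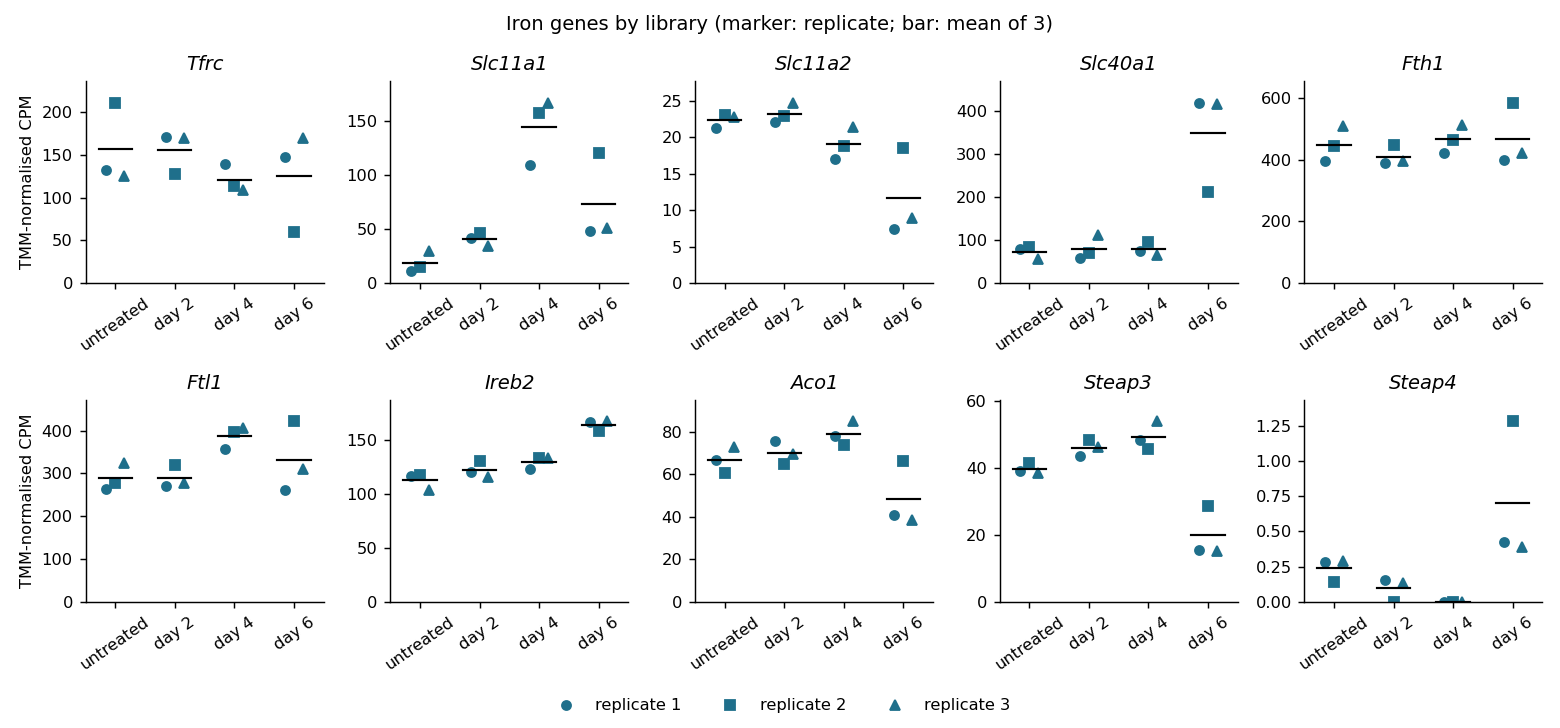
TMM-normalised CPM of each of the 10 genes (y axis, from 0, its own scale in each panel) in every library by group (x axis), with a marker shape for each replicate and a bar at the mean of 3. Slc40a1 lies at 213 CPM or more at day 6 and at 111 CPM or less before. Day 6 replicate 2 sits apart from the other day 6 libraries for Tfrc, Slc11a1, Slc11a2, Slc40a1, Fth1, Ftl1, Aco1 and Steap3.

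Among the uptake genes, Tfrc (Entrez 22042, chr16:32608896-32632794) did not pass the test at any day. Its level was 133, 211 and 125 CPM before Dox, and 171, 128 and 171 CPM at day 2. It was 139.7, 114 and 109.5 CPM at day 4 and 147, 59.8 and 170.0 CPM at day 6. The groups overlapped at every day, and the low day 6 value belonged to replicate 2. On the log2 scale the difference from untreated was -0.37 at day 4 (adjusted p = 0.398) and -0.32 at day 6 (adjusted p = 0.412), and without that library it was 0.02 at day 6. With library totals in place of TMM, Tfrc was called lower at day 6 (log2 fold change -0.86, adjusted p = 0.0229).

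Steap3 (Entrez 68428, chr1:120226414-120271081), the endosomal ferrireductase, was lower at day 6. It was at 39.0, 41.6 and 38.5 CPM in untreated cells, and at 43.6, 48.3 and 46.4 CPM at day 2. It was at 48.3, 45.8 and 54.0 CPM at day 4 and at 15.6, 28.6 and 15.2 CPM at day 6. All 3 day 6 libraries were below every other library, and replicate 2 was the highest of them. Against untreated, the log2 fold change at day 6 was -0.99 ± 0.19 (SE, adjusted p = 5.65e-04), and from day 4 to day 6 it was -1.30 ± 0.19 (adjusted p = 1.97e-04). The comparison of day 6 with day 4 called 5 of the 9 members, where 46.3% of all genes were called (23.6% higher and 22.6% lower).

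Slc11a2 (Entrez 18174, chr15:100387898-100424209), the endosomal iron carrier, was also lower at day 6. It was at 21.3, 23.1 and 22.8 CPM before Dox, 22.2, 22.9 and 24.8 CPM at day 2 and 17.1, 18.8 and 21.4 CPM at day 4. At day 6 it was at 7.46, 18.5 and 8.98 CPM. Replicates 1 and 3 of day 6 were far below the rest, while replicate 2 lay within the day 4 range and below the untreated libraries. At day 6 the log2 fold change was -0.92 ± 0.25 (SE, adjusted p = 0.00564), and without replicate 2 it was -1.44. The step from day 4 to day 6 was -0.69 ± 0.25 (adjusted p = 0.0399), and this call was lost when any 1 of the 11 libraries other than day 6 replicate 2 was left out (adjusted p 0.0502 to 0.148). Slc11a2 overlaps the long noncoding gene Gm5475 in the annotation, and reads of overlapping genes may not be separable as the strand setting is not given.

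Steap4 (Entrez 117167, chr5:7960472-7982213), a plasma membrane metalloreductase, was near the limit of counting. Summed over 3 libraries it held 5 counts in untreated cells, 2 at day 2, 0 at day 4 and 12 at day 6, of which 8 were in replicate 2. A count of 3 corresponds to 0.408 to 0.610 CPM in these libraries, so a level below that cannot be told from 0. It did not pass the filter on low counts and was not tested.

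Slc11a1 (Entrez 18173, chr1:74375014-74386057) had the largest fold change of the tested members at day 4. It was at 10.8, 14.5 and 30 CPM without Dox, and 41.9, 46.1 and 34.1 CPM at day 2. It was at 109, 158 and 167 CPM at day 4 and at 48.4, 120.4 and 51.1 CPM at day 6. Every library of every Dox group was above all untreated libraries, day 4 was above day 2 throughout, and at day 6 replicate 2 alone reached the day 4 range. Its log2 fold change was 1.14 ± 0.43 at day 2 (SE, adjusted p = 0.264, not called), 2.97 ± 0.43 at day 4 (adjusted p = 3.70e-04) and 2.00 ± 0.43 at day 6 (adjusted p = 0.00184).

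From day 2 to day 4 Slc11a1 rose by 1.83 ± 0.40 on the log2 scale (adjusted p = 0.00824), the only member called in that step, where 25.2% of all genes were called (15% higher and 10.2% lower). From day 4 to day 6 its difference of -0.97 ± 0.39 was not called (adjusted p = 0.0643). That step was called with DESeq2 (adjusted p = 0.0239), upper-quartile factors (0.0383), library totals (0.0180, at -1.33), the replicate block (0.0419) and without untreated replicate 3 (0.0356). Without day 6 replicate 2 it was -1.54 and called (adjusted p = 0.00661), and the day 6 fold change was 1.44. The summed level of 13 resident macrophage markers was 57.7 to 77.0 CPM in untreated cells, 64.2 to 102 CPM at day 2 and 164 to 297 CPM at day 4. It was 293, 732 and 297 CPM at day 6, with Marco at 0 throughout. Like Slc11a1, this sum was higher at day 4 than in untreated cells and highest of the day 6 libraries in replicate 2. In day 6 replicates 1 and 3 Slc11a1 was below its day 4 range, and this sum was not. Of the 9 macrophage markers tested, 8 were called higher and 1 lower at day 6, where 67.9% of all genes were called. The part of resident macrophages, and of the monocyte markers given above, in the level of Slc11a1 was not tested.

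The promoter window of Slc11a1, from 250 bases before to 50 after the start in RefSeq, is shown because PU.1 binds purine-rich ETS sites and this gene was called higher at days 4 and 6. It held 1 match to GAGGAA, 152 bases before the start of that window's transcript at chr1:74375203, in capitals below with 12 bases on each side (GRCm38.p6, plus strand). That start and the match lie inside the gene range printed above, which begins further upstream.
Slc11a1 promoter, chr1:74375039-74375068: gggtatccaggaGAGGAAcgaaggtcaaaa
The letters GAGGAA, on either strand, stand in 28.3% of 32851 mouse promoter windows and GGAAGT in 23.8%, so such a match is common. Among the members, GAGGAA was also found for Ireb2 and Steap3, and GGAAGT for Tfrc and Steap3. The letters CACGTG (7.15% of windows) and TGACNNNGC (12.4%) were in no member window. These are matches of letters, with no measure of binding here, and 8 of the 10 members had a window.

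The ferritin genes were the most abundant members. Fth1 (Entrez 14319, chr19:9980600-9985111), the chain with ferroxidase activity, was at 394, 442 and 507 CPM without Dox, and 388, 446 and 395 CPM at day 2. It was at 420.2, 465 and 512 CPM at day 4 and 399.6, 584 and 419.7 CPM at day 6. The groups overlapped at each day and no comparison of Fth1 was called: the log2 fold change was -0.13, 0.06 and 0.06 at days 2, 4 and 6. The sign at days 4 and 6 turned with library totals, to -0.06 and to -0.43, and the day 6 value was then called (adjusted p = 0.0327).

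Ftl1 (Entrez 14325, chr7:45457944-45459886), the light chain, was higher at day 4. It was at 265, 278 and 325 CPM in the untreated libraries, 272, 319.8 and 278 CPM at day 2 and 356, 396 and 407 CPM at day 4. At day 6 it was at 262, 422 and 309.8 CPM. Day 4 lay above the untreated and day 2 libraries throughout, while day 6 spanned both. Its log2 fold change was 0.42 ± 0.15 at day 4 (SE, adjusted p = 0.0414) and 0.20 at day 6 (adjusted p = 0.265). The day 4 call was lost with upper-quartile factors (adjusted p = 0.109), with library totals (0.185) and when any of 6 libraries was left out: untreated replicates 1 and 2, day 2 replicates 1 and 3, and day 4 replicates 2 and 3 (0.0525 to 0.136). The pseudogene Ftl1-ps2 held 0 to 9 counts per library.

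Slc40a1 (Entrez 53945, chr1:45908070-45926532), the exporter, changed only in the last interval by this test. It was at 79.7, 84.1 and 56.0 CPM in the untreated libraries, 58.0, 71.0 and 111 CPM at day 2, and 75.9, 96.1 and 65.2 CPM at day 4. At day 6 it was at 421, 213 and 418 CPM. All day 6 libraries were above every earlier library, and replicate 2 was the lowest of them. The fitted log2 fold change at day 6 was 2.26 ± 0.31 (SE, adjusted p = 7.64e-05), and the step from day 4 was 2.15 ± 0.31 (adjusted p = 3.15e-04). At days 2 and 4 it was 0.13 and 0.11 and not called. The day 6 value was 1.71 with library totals and 2.52 without replicate 2. The neutrophil sum given above was also higher at day 6 than before and lowest of the day 6 libraries in replicate 2. The resident macrophage sum was already higher at day 4 (164 to 297 CPM) than in untreated cells (57.7 to 77.0 CPM). At day 6 it was 293, 732 and 297 CPM, so only replicate 2 was above the day 4 range. Erythroid markers were near 0 in every library. The part of the neutrophil and macrophage markers in the level of Slc40a1 was not tested.

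Of the control genes, Ireb2 (Entrez 64602, chr9:54862658-54912534) was at 117, 118 and 104 CPM in the untreated group, 120.3, 130.3 and 116 CPM at day 2, and 123, 133 and 133 CPM at day 4. At day 6 it was at 166, 158 and 168 CPM. The day 6 libraries were above all others and close together, replicate 2 included. The log2 fold change at day 6 was 0.54 ± 0.08 (SE, adjusted p = 8.25e-05), and the step from day 4 was 0.34 ± 0.08 (adjusted p = 0.00511). This rise depended on the scaling: it was 0.53 with RLE factors (adjusted p = 9.67e-05) and 0.29 with upper-quartile factors (0.00584), and it was not called with library totals. As CPM of the library total, Ireb2 was at 134, 128 and 114 in untreated cells and 122, 134 and 125 at day 6, and the log2 fold change was 0.02 (adjusted p = 0.850).

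Aco1 (Entrez 11428, chr4:40143265-40199009), which encodes a cytosolic aconitase that serves as IRP1 when it lacks its iron-sulfur cluster, was lower at day 6. It was at 66.9, 60.8 and 72.8 CPM without Dox, 75.8, 64.8 and 69.6 CPM at day 2 and 78.0, 73.9 and 85.1 CPM at day 4. At day 6 it was at 40.7, 66.5 and 38.5 CPM. Replicates 1 and 3 of day 6 were below every other library, and replicate 2 was within the untreated range. The log2 fold change at day 6 was -0.45 ± 0.17 (SE, adjusted p = 0.0333), and from day 4 to day 6 it was -0.69 ± 0.17 (adjusted p = 0.00594). The call at day 6 was lost without untreated replicate 1 or 3 or day 6 replicate 1 or 3 (adjusted p 0.0678 to 0.139) and in a fit of only the 2 groups (0.0865). Without day 6 replicate 2 the value was -0.76.

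**Figure D2:**
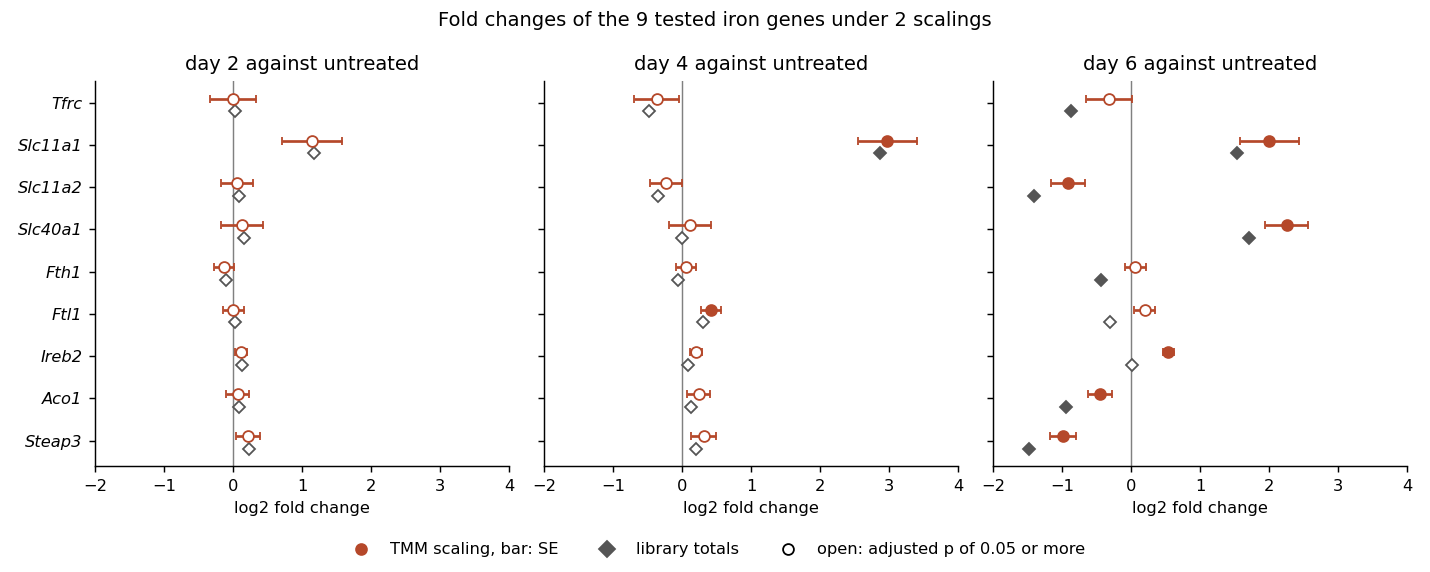
Log2 fold change against untreated (x axis) of the 9 tested genes (y axis) at days 2, 4 and 6, with TMM scaling (circles, bars of 1 SE) and with library totals (diamonds); open symbols did not pass an adjusted p of 0.05. At day 6 the diamonds lie to the left of the circles, and Ireb2 goes from 0.54 to 0.02.

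Calls at day 6 depended on the scaling. The TMM factors were 0.737, 0.847 and 0.749 at day 6 and 1.02 to 1.15 in the other groups. With library totals the median of all genes moved by -0.52 on the log2 scale at day 6 and by -0.12 at day 4, and the share of calls that were higher at day 6 went from 51.6% to 25.2%. With upper-quartile factors that share was 37.3% and the median moved by -0.25. At day 4 the share was 52.2% with TMM, 41.2% with upper-quartile factors and 39.1% with totals. With totals 7 members were called at day 6, where 75.0% of all genes were called. Of the 7, 2 were higher (Slc11a1 at 1.53 and Slc40a1 at 1.71) and 5 lower (Tfrc, Slc11a2, Fth1, Aco1 and Steap3). Slc11a1, Slc40a1, Slc11a2, Aco1 and Steap3 thus had the same direction and a call under both.

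Ratios of members within 1 library do not depend on the scaling, so 4 ratios of counts per length were compared with those of untreated cells. With 3 libraries against 3 the exact two-sided permutation test cannot give less than 0.1, and after adjustment over the 12 comparisons the smallest value was 0.2. The ratio of heavy to light ferritin chain mRNA was 1.67, 1.78 and 1.75 before Dox, 1.60, 1.56 and 1.59 at day 2, and 1.32, 1.31 and 1.41 at day 4. It was 1.71, 1.55 and 1.52 at day 6. All day 2 and day 4 libraries were below the untreated ones, with a mean log2 difference of -0.13 and -0.36 (exact permutation p = 0.1 for each). Day 6 overlapped (-0.12, exact permutation p = 0.2).

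The log2 ratio of Ireb2 to Aco1 was 0.33 ± 0.23 in untreated cells (SD, n = 3), 0.38 ± 0.18 at day 2 and 0.29 ± 0.12 at day 4. At day 6 it was 1.60, 0.82 and 1.70, above all untreated libraries (mean difference 1.04, exact permutation p = 0.1). This ratio is the same under every scaling. With 3 libraries against 3 the permutation test cannot reach 0.05, so it cannot decide on this difference. The log2 ratio of Slc11a1 to Slc11a2 was 0.31, 0.62 and 1.69 in untreated cells and 2.21, 2.30 and 1.75 at day 2. It was 3.97, 4.36 and 4.25 at day 4 and 3.99, 3.99 and 3.8 at day 6. Each Dox group was above all untreated libraries (exact permutation p = 0.1 for each). At day 6 the 3 libraries had nearly 1 value for this ratio although replicate 2 differed in both genes, which were each higher there. The log2 ratio of Tfrc to Fth1 was -4.05 ± 0.48 in untreated cells and -4.51 ± 1.11 at day 6 (SD, n = 3), and it overlapped at each day (exact permutation p of 0.7, 0.2 and 0.7).

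**Figure D3:**
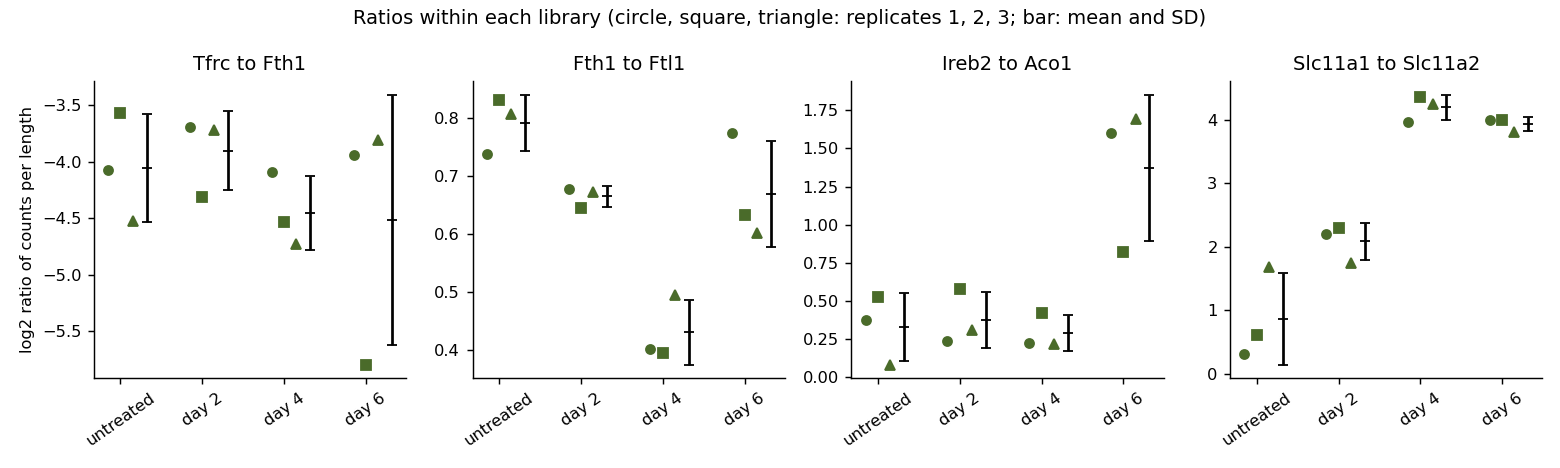
Log2 ratio of counts per length (y axis) in each library by group (x axis) for 4 pairs of members, with circles, squares and triangles for replicates 1, 2 and 3 and bars for the mean and SD. The ferritin ratio falls to a mean of 0.43 at day 4, and the ratio of Slc11a1 to Slc11a2 goes from a mean of 0.87 to 4.19.

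Levels of different genes were compared per length, as RPKM with TMM scaling. In untreated cells the order was Fth1 (517 ± 65.7 RPKM, SD, n = 3), Ftl1 (298 ± 32.6), Tfrc (31.8 ± 9.69), Slc40a1 (21.7 ± 4.46), Ireb2 (19.4 ± 1.35), Aco1 (15.5 ± 1.39), Steap3 (12.5 ± 0.528), Slc11a1 (8.0 ± 4.43), Slc11a2 (3.98 ± 0.176) and Steap4 (0.0754 ± 0.0269). Of the neighbours in that order, Tfrc and Slc40a1, Slc40a1 and Ireb2, Steap3 and Slc11a1, and Slc11a1 and Slc11a2 overlapped in their mean ± 1 SD, and the other pairs did not. At day 4 Slc11a1 stood next after ferritin with 62.8 ± 13.5 RPKM, above Tfrc at 24.6 ± 3.31. At day 6 Slc40a1 stood there with 104 ± 35.2 RPKM, and Slc11a1 (31.8 ± 17.7), Ireb2 (28.2 ± 0.893) and Tfrc (25.6 ± 11.8) were within their spread.

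Other genes of the pathway came from 4 lists of iron genes. Of 36 genes of iron transport and control outside the 10 members, 24 were tested: none was called at day 2 (6 at an unadjusted p of 0.05, 0 with DESeq2), 9 were higher and 5 lower at day 4, and 13 were higher and 6 lower at day 6. Of all genes, 1.45%, 42.4% and 67.9% were called at days 2, 4 and 6, and 3.52% at day 2 with DESeq2. The share of all genes at an unadjusted p of 0.05 was not counted, so the unadjusted counts of the lists have no background here. The largest rises at day 6 were those of Ltf (lactoferrin) and Lcn2 (lipocalin 2), iron-binding and siderophore-binding proteins of neutrophil granules. Ltf went from 77.1 ± 50.2 to 9392 ± 3765 CPM (SD, n = 3; log2 fold change 6.93, adjusted p = 2.53e-06), and Lcn2 from 116 to 6240 CPM (5.75, adjusted p = 3.01e-07). Ltf is also 1 of the 10 neutrophil markers, which all were called higher at day 6. Hfe, a partner of the transferrin receptor, rose from 5.50 to 23.8 CPM at day 4 and was at 21.6 CPM at day 6.

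Heph and Cp, multicopper ferroxidases that work with ferroportin, were among the falls at day 6, when Slc40a1 was higher. The level of Heph was already lower at day 4, when Slc40a1 was not called. Heph (hephaestin) was at 283 ± 40.6 CPM in untreated cells, 196 ± 42.2 at day 2, 54.0 ± 10.6 at day 4 and 11.5 ± 2.28 at day 6 (log2 fold change -4.63, adjusted p = 1.61e-08). Cp (ceruloplasmin) was at 72.1 ± 28.2 CPM in untreated cells and 3.52 ± 2.96 at day 6 (-4.26, adjusted p = 2.89e-05). The sums of 2 marker lists were also lower at days 4 and 6. That of 10 stroma and endothelium markers was 229.96 to 342 CPM in untreated cells, 252 to 277 CPM on day 2, 138 to 185 CPM on day 4 and 25.4 to 33.9 CPM on day 6, with Col3a1 at 0 throughout. Only 3 of these 10 markers, Pdgfrb, Cxcl12 and Pecam1, passed the filter on low counts. Of the 3, 1 was called lower at day 4 and 3 at day 6, where 42.4% and 67.9% of all genes were called. The sum of 9 myeloid progenitor markers was 28995 to 33041 CPM in untreated cells and 22767 to 23659 CPM on day 2. It was 12633 to 19385 CPM on day 4 and 8105 to 10357 CPM on day 6. Of these 9 markers, 4 were called lower and 1 higher at day 4, where 42.4% of all genes were called. At day 6, 6 were called lower and 1 higher, where 67.9% of all genes were called, so the progenitor sum does not stand for each marker. The part of both marker lists in the levels of Heph and Cp was not tested. In the list of iron transport and control, Slc39a8 (-1.10) and Sfxn1 (-0.82) were also lower at day 6. With library totals this list had 10 higher and 11 lower, where 75.0% of all genes were called. Without day 6 replicate 2 it had 14 and 8, where 70.7% of all genes were called.

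Of 12 tested genes of heme synthesis, none was called at day 2, where 1.45% of all genes were called. At day 2, 1 was called with DESeq2 (3.52% of all genes) and 2 passed an unadjusted p of 0.05. In this list 3 were lower at day 4, and 2 were higher and 3 lower at day 6 (42.4% and 67.9% of all genes were called). Fech, which inserts iron into the heme ring, fell from 122 ± 11.8 to 54.8 ± 5.03 CPM at day 6 (-1.16 on the log2 scale, adjusted p = 9.89e-07), and Alad fell from 19.8 to 6.72 CPM (-1.54). Cpox was lower (-0.66), and Ppox (1.35) and Slc25a38 (0.56) were higher. With library totals 1 of the 12 was higher and 10 lower, where 75.0% of all genes were called. Without day 6 replicate 2 the calls were 2 and 5, where 70.7% of all genes were called.

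Of 12 tested genes of heme breakdown and transport, none was called at day 2, where 1.45% of all genes were called. At day 2, 1 was called with DESeq2 (3.52% of all genes) and 2 passed an unadjusted p of 0.05. In this list 5 were higher and 2 lower at day 4, and 6 were higher and 5 lower at day 6 (42.4% and 67.9% of all genes were called). Hmox1, the inducible enzyme that releases iron from heme, was at 11.6 ± 4.68 CPM in untreated cells, 64.0 ± 16.4 at day 4 and 81.8 ± 48.6 at day 6 (log2 fold change 2.82, adjusted p = 1.85e-04). Lrp1, the receptor for heme bound to hemopexin, was at 76.2, 179, 364 and 223 CPM from untreated to day 6. Cd163, the hemoglobin receptor and also 1 of the resident macrophage markers, fell from 21.2 to 3.24 CPM at day 6 (-2.67). With library totals 2 were higher and 6 lower, where 75.0% of all genes were called. Without day 6 replicate 2 the calls were 5 and 5, where 70.7% of all genes were called.

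Of 24 tested genes of iron-sulfur cluster assembly, 1 was lower at day 2, 2 were higher and 8 lower at day 4, and 2 were higher and 13 lower at day 6. Of all genes, 1.45%, 42.4% and 67.9% were called at these days, with 35% higher and 32.9% lower at day 6. The median log2 fold change at day 6 was -0.42, against -0.00029 for all genes. The gene called at day 2 was Isca1, at 42.2 ± 4.86 CPM in untreated cells and 22.0 ± 1.41 at day 2 (-0.94, adjusted p = 0.00177), and it was at 18.0 CPM at day 6. The chaperone Hspa9 went from 450.4 to 140.6 CPM at day 6 (-1.68). Nfu1 (1.03) and Ciao3 (0.35) were higher. With library totals 1 gene was higher and 22 lower, where 75.0% of all genes were called. In that setting 2283 of the 12057 genes were higher and 6764 lower. Without day 6 replicate 2 the calls were 2 and 15, where 70.7% of all genes were called. The part of the cell types named above in these changes was not tested.

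**Figure D4:**
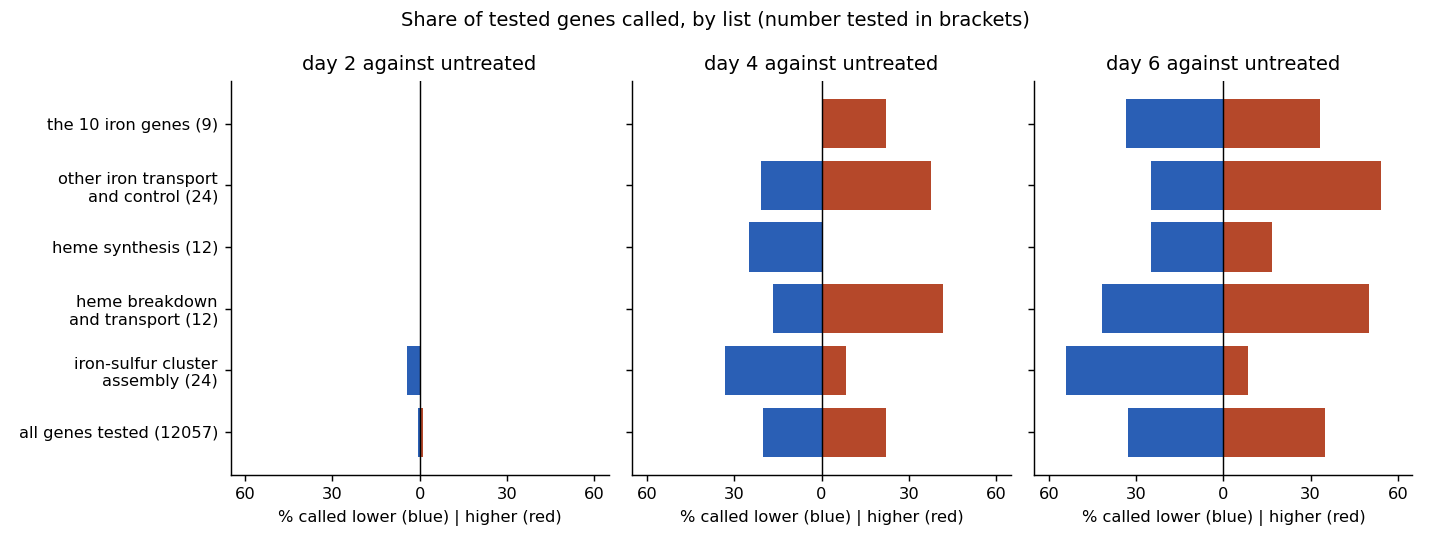
Percent of tested genes called lower (to the left) and higher (to the right) against untreated at days 2, 4 and 6 for the 10 members, 4 lists of iron genes and all genes (y axis, number tested in brackets). At day 6 the iron-sulfur list has 13 of 24 genes lower and 2 higher, and all genes are near even.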

How the data were processed

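Bulk RNA-seq was measured in 12 libraries of sorted AML246 cells. Each deposited table gives, per gene (27179 in all), the authors' whole-number read count, not normalised as far as the values show, and a length. Tools and builds in the submitters' processing notes are featureCounts, CASAVA 1.8.2, limma 3.22.0, edgeR 3.8.2 and mm10. Aligner and strandedness: not given in the sources used here. Symbols came from RefSeq GRCm38.p6 (25275 genes); the 1904 unnamed genes took 0.493% to 1.07% of each library's counts.

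The tests ran in R 4.3.3, using edgeR 4.0.16 (filterByExpr, TMM, robust quasi-likelihood test, two-sided, group as the only term, all 12 libraries in 1 fit, 8 residual degrees of freedom) and limma 3.58.1. Benjamini-Hochberg adjustment ran over 12057 genes, and a gene was called at an adjusted p under 0.05. Ratios were compared by exact permutation. Hairpins were searched in GENCODE transcripts of GRCm38 and promoter letters in RefSeq windows. Alternatives were DESeq2 1.42.0, other scalings and filters, fits of only the groups compared, a replicate block and each library left out.

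The members and lists were chosen with earlier results of these data known. Named genes are the members, Spi1 and Trp53 as a check of the labels, up to 4 genes per list with the largest rise and fall at day 6 (called, at 10 CPM or more), those called at day 2, ferritin pseudogenes with counts, and the 3 genes nearest to each of 5 members in profile. Some of them are left out of the text for length, a choice made with their values known.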

Additional observations from a re-analysis of the deposited data

Results flagged for a closer look

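Of the members, 6 differed between consecutive days by edgeR's quasi-likelihood test of the step itself, which marks them for a closer look. From day 2 to day 4, 1 of the 9 tested members was called, against 25.2% of all genes. From day 4 to day 6, 5 of the 9 were called, against 46.3% of all genes. On the log2 scale, Slc11a1 was higher by 1.83 ± 0.40 (SE) at day 4 than at day 2 (adjusted p = 0.00824). The other 5 differed between day 6 and day 4. Slc40a1 was higher at day 6 by 2.15 ± 0.31 (adjusted p = 3.15e-04) and Ireb2 by 0.34 ± 0.08 (adjusted p = 0.00511), the latter with a log2 difference of -0.065 under library totals. Steap3 had a difference of -1.30 ± 0.19 (adjusted p = 1.97e-04), Aco1 of -0.69 ± 0.17 (adjusted p = 0.00594) and Slc11a2 of -0.69 ± 0.25 (adjusted p = 0.0399). The Slc11a2 call was lost when any library other than day 6 replicate 2 was left out.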

How the results depend on the processing

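Over all alternatives, 619 of 700 member values kept their direction and their side of the threshold, 28 lost the call, 17 gained one and 36 changed sign. The count of members called at day 4 against untreated was 2, where 42.4% of all genes were called. It was 1 with upper-quartile factors (45.1% of all genes) or library totals (44.3%). With 1 library left out it was 1 to 5 (31.7% to 50.2% of all genes). The count at day 4 against day 2 was 1 (25.2% of all genes). It was 2 with DESeq2 (26.3%), 2 in a fit of only those groups (37.0%) and 2 with the replicate block (23.2%). With 1 library left out it was 1 to 2 (15.3% to 34.3% of all genes). With library totals, heme synthesis had 11 calls at day 6 and iron-sulfur assembly 23, where 75.0% of all genes were called. Without any low-count filter Steap4 was tested and was called from day 4 to day 6 (adjusted p = 0.00633), on 12 counts. Signs turned only for values that were not called with TMM, apart from Ireb2 at day 6 against day 4 (-0.065 with totals). Ftl1 at day 2 was -0.0047 with RLE factors, -0.0064 with upper-quartile factors, -0.0047 with DESeq2, -0.0011 with the stricter filter and -0.0012 with the block. Fth1 was -0.035 with upper-quartile factors and -0.059 with totals at day 4, and -0.18 and -0.43 at day 6. Ftl1 at day 6 was -0.046 and -0.30 with these, and Slc40a1 at day 4 was -0.0085 with totals. Tfrc at day 2 was 0.026 with totals, 0.0053 with no filter and 0.0043 with only the groups compared. With 1 library left out, the range was -0.029 to 0.16 for Fth1 at day 4, -0.13 to 0.17 for Fth1 at day 6, -0.074 to 0.094 for Ftl1 at day 2, -0.017 to 0.34 for Ftl1 at day 6, -0.18 to 0.32 for Slc40a1 at day 2, -0.051 to 0.23 for Slc40a1 at day 4, -0.14 to 0.28 for Tfrc at day 2 and -0.60 to 0.020 for Tfrc at day 6. The log2 ratio of Tfrc to Fth1 against untreated ranged from -0.083 to 0.39 at day 2 and from -0.81 to 0.18 at day 6, and that of Ireb2 to Aco1 from -0.076 to 0.15 at day 2 and from -0.16 to 0.058 at day 4. The cause of these shifts was not tested.

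The replicate numbers did not pair the libraries: residuals of same-numbered libraries had a mean correlation of 0.0057 over 18 pairs (-0.17 to 0.29), and a library of its own number was the closest for 4 of 12. With the replicate block 5 members were called at day 6 (Aco1 at an adjusted p of 0.0502 was not), where 66.9% of all genes were called. Any change over the 4 groups was called in 7 members with the block, and the share of all genes there was not counted. Without the block it was called in 6 members and in 68.7% of all genes. Depth limits Steap4.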

Other observations

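Genes with the profile nearest to a member were listed by the root mean square difference of centred log2 CPM over the 12 libraries. For Slc11a1 they were Plekho1 (0.28), Kcne3 (0.29) and S100a4 (0.31), and for Slc40a1 they were Plcb2 (0.14), Golim4 (0.18) and Usp46 (0.19). For Tfrc they were Zgrf1 (0.19), Brca2 (0.20) and Arhgap21 (0.20). For Fth1 they were Mlf2 (0.091), Copb1 (0.099) and Mad2l1bp (0.10), and for Ftl1 they were Fcgr2b (0.088), Mien1 (0.089) and Mfsd11 (0.097). Trp53, which encodes p53, still held counts in these p53-/- cells, with a mean of 42.8 CPM before Dox and 15.7 CPM at day 6; which part of it is deleted is not stated in the labels. The members Slc40a1, Slc11a1 and Steap3 lie on chromosome 1. At day 6 the first 2 were called higher and Steap3 lower.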
